A study of Mus musculus with 19 samples.

Results

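The genes described here encode 9 proteins of mouse B cells, most of them surface receptors for antibody, complement or sialylated self glycans. Among them, Fcgr2b, Cd22, Siglecg and Cd72 hold back the B cell receptor. The 9 genes are Fcer2a, Cr2, Fcgr2b, Fcrl1, Fcrl5, Fcrla, Cd22, Siglecg and Cd72. They were taken by gene symbol, and all 9 were found in each of the 4 deposited tables, among 15235 genes that every table lists. The libraries come from mice immunized with sheep red blood cells and harvested at day 28, in a series that asks what Pik3cg, the gene of the gamma isoform of the lipid kinase PI3K, does in B lineage cells. The 6 groups are splenic germinal centre (GC) B cells sorted as CD95+ GL7+ and labelled Pik3cg knockout (n = 4), the same cells labelled wild type (n = 3), bone marrow antibody-secreting cells (ASC) sorted as CD138+ and labelled wild type (n = 3), splenic CD138+ ASC labelled wild type (n = 3), splenic naive B cells sorted as CD3- B220+ IgD+ and labelled knockout (n = 3), and those naive cells labelled wild type (n = 3). All mice received the antigen, and the labels give no strain, age, sex, Cre driver or unimmunized group. Whether the libraries of a group came from separate mice is not stated for each library, so p-values measure the spread between these samples, which may be partly technical.

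B cell receptor signalling is set by partner molecules on the same membrane. Fcer2a (CD23) is the low-affinity IgE receptor, and Cr2 encodes the complement receptors CD21 and CD35, of which CD21 binds complement-coated antigen. Fcgr2b, Cd22, Siglecg and Cd72 carry inhibitory tyrosine motifs (ITIMs) which, once phosphorylated by the kinase Lyn, recruit the phosphatases encoded by Ptpn6 and Inpp5d; the Inpp5d product removes a phosphate from the lipid that PI3K makes. Mature follicular B cells are known for high CD21, CD23 and CD22, germinal centre B cells for low CD23, and antibody-secreting cells for losing most B cell surface receptors while keeping some Fcgr2b.

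Expression was deposited as CPM, reads of a gene per 1000000 reads assigned to genes, at an estimated depth of 10.2 to 21.6 M reads per library (M, 1000000), and the 4 tables were normalized separately, so differences are tested within a table and levels across tables are described. Pik3cg itself did not separate the labels: it stood at 66.0, 52.8, 6.55 and 9.04 CPM in GC libraries labelled knockout, against 56.5, 34.3 and 19.4 CPM in those labelled wild type (log2 fold change −0.60, limma adjusted p = 0.696), and at 94.98, 127 and 97.7 CPM in naive libraries labelled knockout, against 115, 110.1 and 110.6 CPM in naive libraries labelled wild type (−0.08, limma adjusted p = 0.935). The column headings call the 9 naive and ASC columns labelled wild type HET, and the sample labels were followed. Germinal centre markers went against the sort label in part: 8 markers summed to 2263 to 3061 CPM in GC libraries labelled knockout, against 246.6 to 288.8 CPM in those labelled wild type, where S1pr2, Rgs13 and Gcsam were at 0 in every library. The sorted surface marker Fas (CD95) averaged 249.7 ± 31.0 CPM in GC libraries labelled knockout and 213.2 ± 14.58 CPM in those labelled wild type (SD, n = 4 and n = 3). Within the GC table, replicates of the libraries labelled knockout correlated at r = 0.681 to 0.743 across genes, below the 0.827 to 0.873 of those labelled wild type. Replicate 3 labelled wild type carries a library number outside the run of the other GC libraries, and replicate 1 labelled knockout holds the most macrophage and erythroid marker RNA, so the GC counts were also taken without both.

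In GC B cells the receptors split. Libraries labelled knockout held 30.9-fold less Fcer2a than those labelled wild type and more of 6 others: 14.4-fold more Cr2, 10.4-fold more Fcrla, 5.90-fold more Siglecg, 3.02-fold more Cd22, 2.83-fold more Fcgr2b and 2.70-fold more Fcrl1, as ratios of mean CPM. Cd72 and Fcrl5 did not pass the test. Of the 9 genes, 7 were called with limma at an adjusted p under 0.05, where 13.6% of the 8522 tested genes were called. The 6 that were higher compare with 8.54% of tested genes called higher, and the 1 that was lower with 5.09% called lower. Without replicate 1, 2 or 3 labelled wild type that background was 8.64%, 7.07% or 8.38%, and the same 7 genes were called each time. The median log2 fold change was 1.59 over the 9 genes and 0.02 over all tested genes. Naive B cells gave no such difference for any of the 9 genes, and the effects in the 2 cell types differed for the same 7 genes, as described further on.

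**Figure D1:**
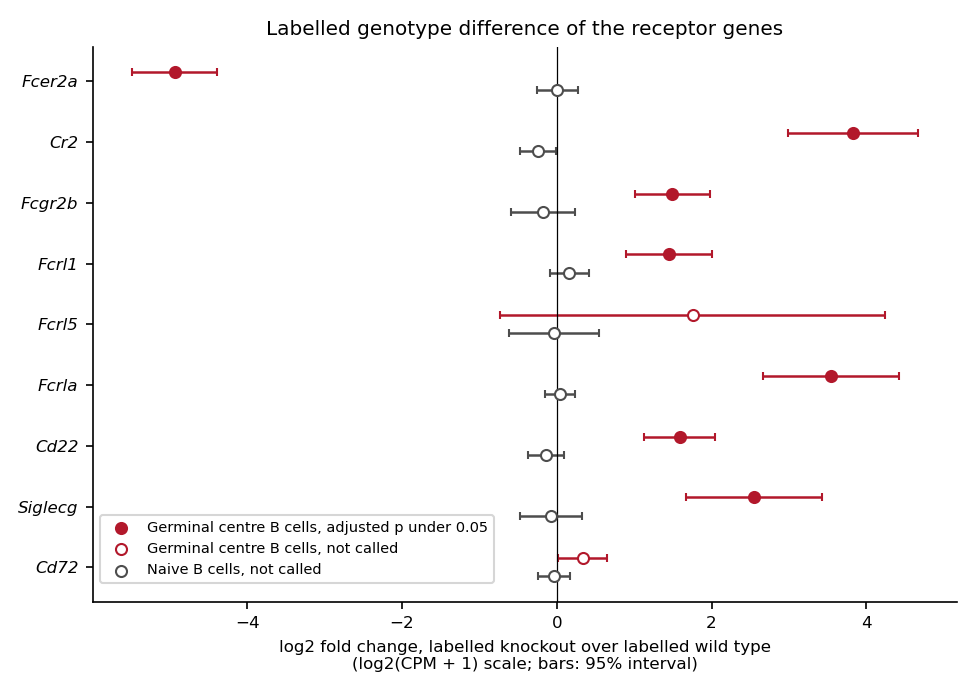
Log2 fold change of each receptor gene, labelled knockout over labelled wild type, on the log2(CPM + 1) scale, with 95% intervals from limma, for GC B cells (red, filled where the adjusted p is under 0.05) and naive B cells (grey). Fcer2a stands at −4.94 and Cr2 at 3.83 in GC B cells, while all 9 naive values lie between −0.25 and 0.16.

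Fcer2a (ENSMUSG00000005540, chromosome 8, 3681737 to 3694175, minus strand, mm10) encodes CD23, which binds IgE and, on B cells, carries IgE-bound antigen into follicles. The gene stood at 43.0, 82.1, 60.3 and 63.8 CPM in GC libraries labelled knockout, against 2439, 1811 and 1525 CPM in those labelled wild type. The groups did not overlap, and the highest library labelled knockout was below the lowest labelled wild type by more than an order of magnitude. The log2 fold change was −4.94 (SE 0.24, 95% interval −5.49 to −4.39, limma adjusted p = 1.25e-05), the smallest p among the 9 genes. Leaving out single libraries kept it between −5.09 and −4.75. Ighe, the constant gene of the IgE heavy chain, was lower in the same libraries, at 6.617 ± 8.849 CPM labelled knockout against 138.5 ± 39.62 CPM labelled wild type (SD, n = 4 and n = 3; log2 fold change −5.23, limma adjusted p = 0.0135). The protease gene Adam10, whose product sheds CD23 from the membrane, averaged 142.4 ± 46.98 CPM in GC libraries labelled knockout and 154.3 ± 32.08 CPM in those labelled wild type (SD; limma adjusted p = 0.765).

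Fcer2a and Cr2, both marks of mature B cells, moved in opposite directions, so a promoter of each is printed. Sequences are those of RefSeq on GRCm38.p6, from 250 bases before to 50 bases after each start, 5′ to 3′ on the gene's strand; all 9 genes matched, with 12 starts. The letters searched on both strands were TGGGAA (the core bound by the Notch partner RBPJ) and GAGGAA (the core of PU.1 and Spi-B sites), both from general knowledge. Capitals mark matches. The Fcer2a entry is the second of 3 starts, the one with the most matches, inside the gene at chr8:3690812-3691111; Cr2 lies at chr1:195176670-195176969, and both are on the minus strand.
Fcer2a: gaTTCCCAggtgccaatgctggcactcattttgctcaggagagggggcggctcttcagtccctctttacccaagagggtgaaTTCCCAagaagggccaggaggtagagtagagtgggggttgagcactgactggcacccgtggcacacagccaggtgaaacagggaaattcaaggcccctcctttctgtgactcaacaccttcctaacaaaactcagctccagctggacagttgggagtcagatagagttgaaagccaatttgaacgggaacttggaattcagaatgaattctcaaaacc
Cr2: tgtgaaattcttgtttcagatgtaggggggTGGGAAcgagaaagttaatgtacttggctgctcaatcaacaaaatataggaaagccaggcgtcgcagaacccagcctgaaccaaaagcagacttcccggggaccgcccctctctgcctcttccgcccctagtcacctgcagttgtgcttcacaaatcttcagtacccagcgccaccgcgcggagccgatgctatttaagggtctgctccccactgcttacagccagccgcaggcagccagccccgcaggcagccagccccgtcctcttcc
The Fcer2a window held TGGGAA matches from bases 3 and 83, both on the opposite strand, counted from the 5′ end. The first of the 3 Fcer2a starts held no match, and the last held 1. Cr2 held a TGGGAA match from base 31, and matches were also found at Cd22 and at 1 of 2 Siglecg starts. Of all 32544 mouse promoter windows of this length, 25.4% hold TGGGAA and 28.1% hold GAGGAA. The letters GAGGAA were found at Fcrl1, Fcrla, Siglecg and Cd72, and Fcgr2b and Fcrl5 held neither. A match is a run of letters in the window and was not tested for binding.

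Cr2 (ENSMUSG00000026616, chromosome 1, 195136811 to 195176716, minus strand) makes CD21 and CD35 from one gene by splicing, and the gene-level values do not separate them. It stood at 189, 203, 154 and 293.9 CPM in GC libraries labelled knockout, against 9.21, 23.6 and 11.1 CPM in those labelled wild type. Every library labelled knockout was above every library labelled wild type. The log2 fold change was 3.83 (SE 0.37, 95% interval 2.99 to 4.67, limma adjusted p = 0.000479). Follicular dendritic cells, the stromal cells that also carry CD21, are known for Cxcl13, Clu and Madcam1: Cxcl13 averaged 0.172 CPM in GC libraries labelled knockout and was at 0 in all labelled wild type, Madcam1 was at 0 in all libraries labelled knockout, and the 5 listed of 7 markers summed to 0 to 46.91 CPM labelled knockout against 18.09 to 45.07 CPM labelled wild type. Madcam1 was at 13.0 to 25.91 CPM in libraries labelled wild type. In replicates 1 to 4 labelled knockout these markers summed to 0.690, 10.98, 0 and 46.91 CPM, beside Cr2 at 189, 203, 154 and 293.9 CPM. The part of follicular dendritic cell RNA in the Cr2 difference was not tested.

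Fcgr2b (ENSMUSG00000026656, chromosome 1, 170958617 to 170976547, minus strand) encodes the inhibitory IgG receptor, the one classical IgG receptor of B cells. It was at 151, 197, 193 and 162 CPM in GC libraries labelled knockout, against 58.8, 75.2 and 52.3 CPM in those labelled wild type. The groups did not overlap, with a log2 fold change of 1.49 (SE 0.21, 95% interval 1.01 to 1.98, limma adjusted p = 0.00255). Macrophages also make this receptor. The 10 macrophage and monocyte markers summed to 1596, 577.2, 141.0 and 615.4 CPM in GC replicates 1 to 4 labelled knockout, against 202.2, 77.11 and 79.8 CPM in those labelled wild type, with Lyz2, Csf1r, C1qa, C1qb, C1qc, Fcgr1 and Vcam1 among those at 0 in all 3 libraries labelled wild type. The sum in libraries labelled wild type came from Adgre1 and Cd68. Every GC library labelled knockout held Lyz2 (53.65 to 298.3 CPM), C1qb (24.15 to 347.9 CPM) and C1qc (27.37 to 185.1 CPM), and the part of macrophage RNA in the Fcgr2b difference was not tested. Its neighbour in sequence Fcgr3, an activating receptor of macrophages and natural killer cells with closely similar extracellular exons, ranged from 16.98 to 140.0 CPM in GC libraries labelled knockout, against from 0 to 0.0465 CPM in those labelled wild type. How the counting split reads between the pair is not given in the sources used here, and Gm38204 overlaps Fcgr2b exons on the other strand.

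Of the Fc receptor-like genes, Fcrla and Fcrl1 rose in GC B cells labelled knockout and Fcrl5 was not called. Fcrla (ENSMUSG00000038421, chromosome 1, 170917576 to 170927583, minus strand) lies 31.0 kb from Fcgr2b and encodes a relative of the Fc receptors that stays inside the cell and, in human B cells, binds immunoglobulin in the endoplasmic reticulum. It stood at 355.2, 282.05, 352 and 413 CPM in GC libraries labelled knockout, against 19.6, 62.1 and 19.5 CPM in those labelled wild type. The groups were far apart, with replicate 2 labelled wild type above its 2 partners (log2 fold change 3.54, SE 0.39, 95% interval 2.67 to 4.42, limma adjusted p = 0.000772). Fcrl1 (ENSMUSG00000059994, chromosome 3, 87376387 to 87402934, plus strand), a surface protein of mature B cells, was at 183, 150.5, 168 and 147 CPM in GC libraries labelled knockout, against 67.5, 71.5 and 40.8 CPM in those labelled wild type. These groups did not overlap either (log2 fold change 1.46, SE 0.25, 95% interval 0.90 to 2.01, limma adjusted p = 0.00529). Fcrl5 (ENSMUSG00000048031, chromosome 3, 87435773 to 87500678, plus strand) lies 32.8 kb from Fcrl1 and is known in mice from marginal zone and B-1 cells. Its values were 12.9, 55.0, 24.8 and 19.5 CPM in GC libraries labelled knockout, against 0.231, 7.59 and 39.0 CPM in those labelled wild type. The groups overlapped, as replicate 3 labelled wild type lay above 3 of the 4 libraries labelled knockout. The log2 fold change of 1.76 had a 95% interval of −0.73 to 4.25 (limma adjusted p = 0.341), and without single libraries it ran from 0.45 to 2.96.

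Among the lectins, Cd22 and Siglecg were higher and Cd72 was not called. Cd22 (ENSMUSG00000030577, chromosome 7, 30865402 to 30880342, minus strand) binds sialylated glycans and is the main ITIM receptor of follicular B cells. It was at 313, 286, 293.95 and 217 CPM in GC libraries labelled knockout, against 98.8, 73.7 and 103 CPM in those labelled wild type, without overlap (log2 fold change 1.59, SE 0.20, 95% interval 1.13 to 2.05, limma adjusted p = 0.00153). Siglecg (ENSMUSG00000030468, chromosome 7, 43408204 to 43418358, plus strand), its relative that restrains B-1 cells in particular, was at 271, 149, 112 and 163 CPM in GC libraries labelled knockout, against 46.4, 22.4 and 19.6 CPM in those labelled wild type. The lowest library labelled knockout was again above the highest labelled wild type (log2 fold change 2.55, SE 0.39, 95% interval 1.67 to 3.42, limma adjusted p = 0.0033). Cd72 (ENSMUSG00000028459, chromosome 4, 43446462 to 43454628, minus strand), a C-type lectin-like ITIM receptor, was at 447, 508, 495 and 487 CPM in GC libraries labelled knockout, against 441, 330.6 and 388 CPM in those labelled wild type. Its ranges just failed to touch, and they overlapped once immunoglobulin genes were left out of the total. The log2 fold change was 0.33 (SE 0.14, 95% interval 0.02 to 0.65, limma adjusted p = 0.157), so a change of up to 0.65 is within its error. Exons of Cd22 and Cd72 overlap the genes Gm29439 and Tesk1 on the other strand, and whether the counting used strand is not given in the sources used here.

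Counting ranges instead of tests, 7 of the 9 genes were higher in every GC library labelled knockout than in any labelled wild type (15.6% of genes averaging 10 CPM or more) and 1, Fcer2a, was lower (11.7%). Without immunoglobulin genes in the total, 6 were higher (13.6%) and 1 lower (13.6%). Immunoglobulin genes took 2.35% to 7.37% of CPM in GC libraries labelled knockout and 6.78% to 13.17% in those labelled wild type, and mitochondrial genes took 3.27% to 3.96% in GC libraries labelled knockout and 2.07% to 2.42% in those labelled wild type.

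In naive B cells, which were harvested at day 28 as well, the comparison asks whether the receptors differ by label outside the germinal centre. None of the 9 genes was called, as none of the 8832 tested genes was (0.0%), and the smallest adjusted p over all genes was 0.728 with limma; voom on estimated reads also called 0. At an unadjusted p under 0.05, limma gave 587 genes, 6.65%, and 1 of the 9, Cr2. Cr2 stood at 433, 475 and 503 CPM in naive libraries labelled knockout, against 566, 508 and 599.9 CPM in those labelled wild type. All 3 values labelled knockout were below the 3 labelled wild type, as for 7.61% of genes, and the log2 fold change was −0.25 (95% interval −0.48 to −0.01, limma adjusted p = 0.74). Fcer2a was at 1388, 1185 and 1152 CPM in naive libraries labelled knockout, against 1064, 1337 and 1309.8 CPM in those labelled wild type, and these overlapped (log2 fold change 0.01, 95% interval −0.26 to 0.27, limma adjusted p = 0.99). No gene of the 9 was higher in every naive library labelled knockout (5.99% of genes). The other 7 genes had log2 fold changes from −0.18 for Fcgr2b to 0.16 for Fcrl1. Their 95% intervals reached from −0.59 to 0.41 for all but Fcrl5, whose interval was −0.62 to 0.55. Fcrl1 was at 376, 401 and 397 CPM in naive libraries labelled knockout and 376, 306.5 and 368 CPM in those labelled wild type, and Cd72 was at 454, 408 and 404 CPM labelled knockout and 414, 439 and 439 CPM labelled wild type.

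The labelled effect in GC B cells was then set against that in naive B cells in one fit, in which 7.83% of 8871 genes were called. The naive columns labelled wild type that enter this fit are headed HET, as given above. The same 7 genes differed: the effect on Fcer2a was lower in GC B cells by −4.94 (SE 0.30, limma adjusted p = 1.68e-06), among 2.82% of genes called in that direction. The effects on Cr2 (4.07, SE 0.40), Fcrla (3.50, SE 0.46), Siglecg (2.63, SE 0.47), Cd22 (1.72, SE 0.22), Fcgr2b (1.67, SE 0.27) and Fcrl1 (1.29, SE 0.26) were higher, with limma adjusted p-values from 7.63e-05 for Cr2 to 0.00935 for Fcrl1, among 5.02% of genes called in that direction. For Fcrl5 the difference was 1.79 (SE 1.30, limma adjusted p = 0.494) and for Cd72 0.37 (SE 0.16, limma adjusted p = 0.206).

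Across the cell types the 9 genes followed several orders, which are described without a test because the tables were normalized apart. In bulk RNA, fewer cells that express a gene and less RNA per cell cannot be told apart. In GC libraries labelled knockout, 5 genes, Fcer2a, Cr2, Fcrl1, Fcrla and Cd22, lay below every naive library labelled knockout (23.3% of genes) and none above (25.2%). Fcer2a was 19.9-fold lower there by the means, and the other 4 were 2.15-fold to 2.41-fold lower. Fcgr2b, Fcrl5, Siglecg and Cd72 overlapped between these groups. GC libraries labelled wild type showed another picture: Cr2, Fcgr2b, Fcrl1, Fcrla, Cd22 and Siglecg lay below every naive library labelled wild type (29.0% of genes) and Fcer2a above (31.6%). There Cr2 was 38.2-fold, Fcrla 23.3-fold, Siglecg 8.52-fold, Cd22 7.16-fold, Fcrl1 5.84-fold and Fcgr2b 2.66-fold lower, and Fcer2a was 1.56-fold higher. Both GC groups thus had less Cr2, Fcrl1, Fcrla and Cd22 than naive B cells of the same label.

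**Figure D2:**
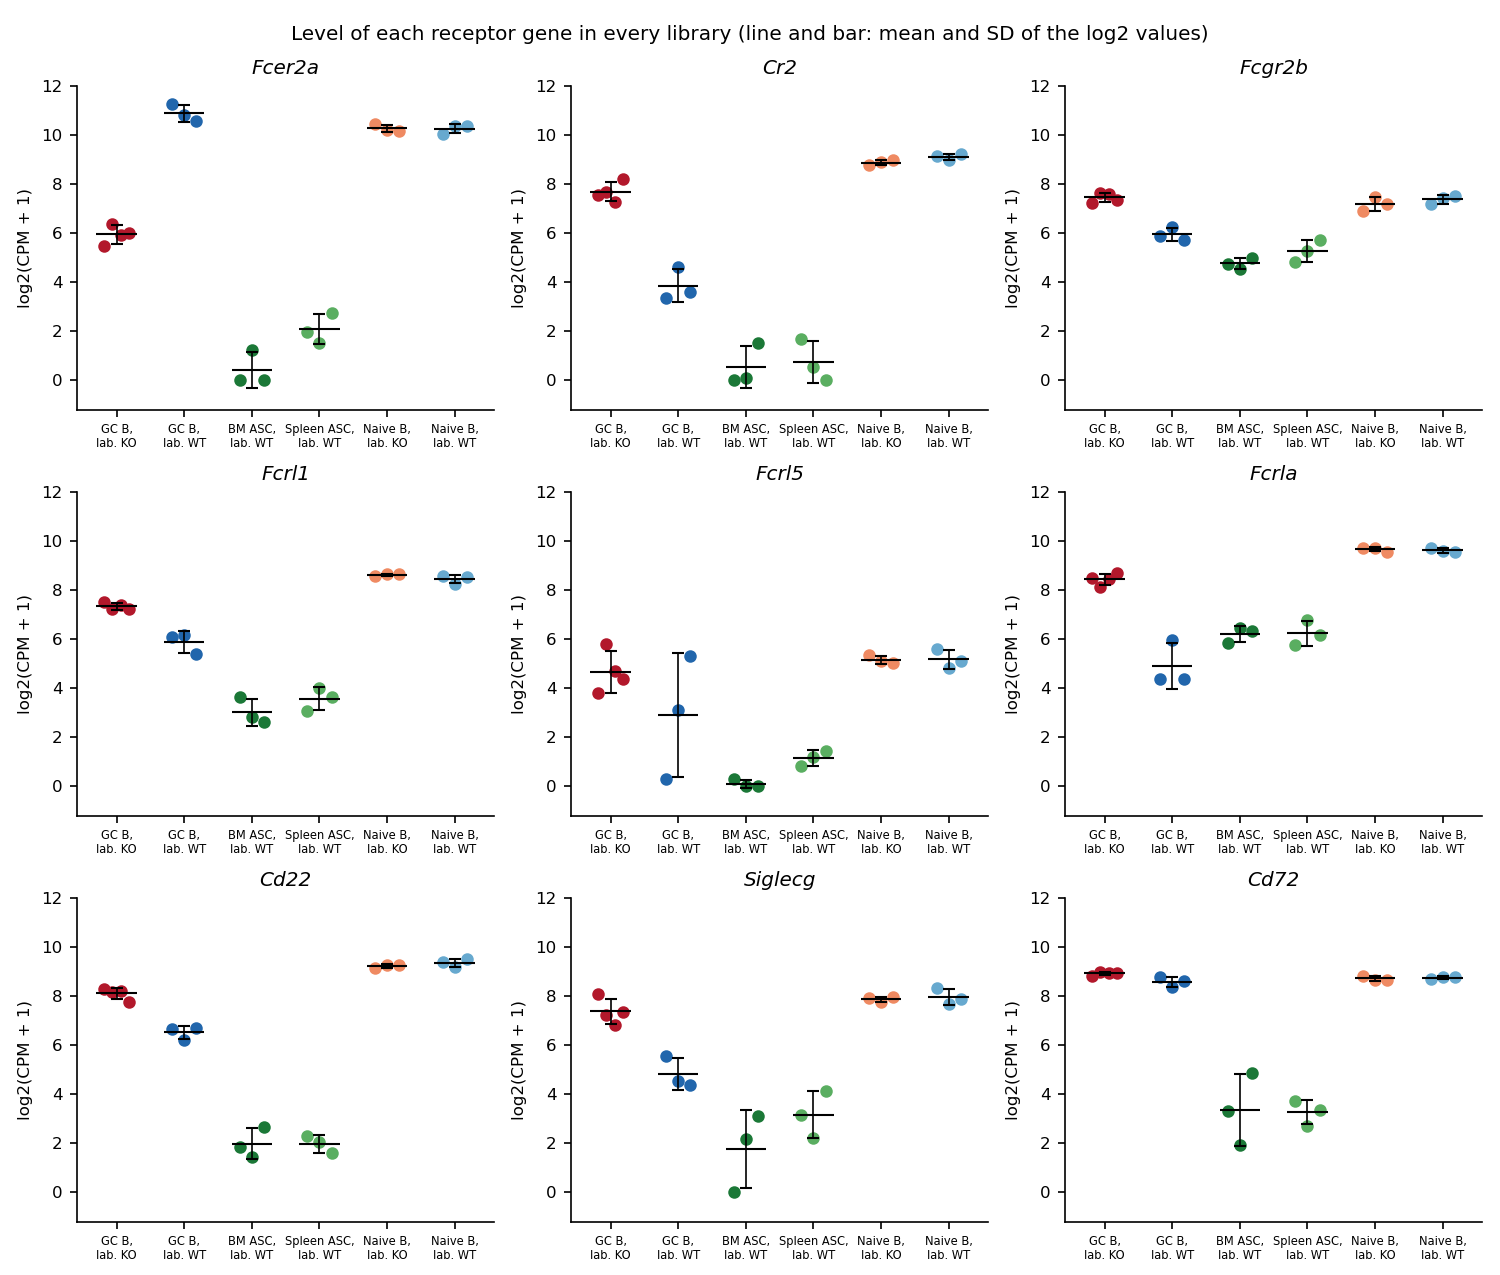
Level of each of the 9 genes as log2(CPM + 1) in all 19 libraries, 1 point per library, by cell type and label (lab. KO, labelled knockout; lab. WT, labelled wild type), with the mean and SD of each group. Fcer2a is highest in GC libraries labelled wild type, Cd72 is at a like level in the 4 GC and naive groups, and the ASC groups are lowest for 8 of the genes, while for Fcrla the GC libraries labelled wild type are lowest.

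Ordered by group mean, Fcer2a ran from GC labelled wild type through the 2 naive groups to GC labelled knockout, spleen ASC and bone marrow ASC, and the 2 naive groups were the one neighbouring pair whose ranges overlapped. Cr2 was highest in naive B cells, then in GC labelled knockout, GC labelled wild type and the ASC groups, and its one overlapping pair was the 2 ASC groups. Fcgr2b was highest in GC labelled knockout, at 175.6 ± 22.7 CPM, overlapping both naive groups at 147.4 ± 30.2 CPM labelled knockout and 165.4 ± 19.5 CPM labelled wild type. Cd22 and Fcrl1 were highest in the naive groups, which overlapped each other, and then stepped down without overlap through GC labelled knockout and GC labelled wild type to ASC. Siglecg in GC labelled knockout overlapped the naive groups, and Fcrl5 overlapped across all 4 GC and naive groups. For Cd72, GC labelled knockout lay above naive labelled wild type (26.3% of genes; 23.1% lay below, as did Fcer2a, Cr2, Fcrl1, Fcrla and Cd22) but overlapped it with immunoglobulin genes left out of the total, and the other GC and naive neighbours overlapped.

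Antibody-secreting cells had the lowest values of most of these genes. All 9 genes were below every naive library labelled wild type in both spleen ASC (83.7% of genes) and bone marrow ASC (88.3% of genes). Immunoglobulin genes took 64.94% to 70.22% of CPM in bone marrow ASC and 61.5% to 66.14% in spleen ASC, against 3.86% to 4.12% in naive B cells labelled wild type, so every other gene is lowered on this scale. With immunoglobulin genes left out of the total, the 9 genes still lay below naive B cells labelled wild type, where 48.8% of genes did in bone marrow ASC and 45.8% in spleen ASC. On that scale the median log2 ratio to naive B cells labelled wild type was −4.42 over the 9 genes and −0.77 over all genes in bone marrow ASC, and −3.50 and −0.60 in spleen ASC.

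The 9 genes were not lowered evenly in ASC. Cd22 was at 2.59, 1.72 and 5.36 CPM in bone marrow ASC and 3.95, 3.13 and 2.01 CPM in spleen ASC, against 669.5, 581 and 721 CPM in naive libraries labelled wild type. Fcer2a was at 0, 1.38 and 0 CPM in bone marrow ASC and 2.97, 1.91 and 5.73 CPM in spleen ASC. Cr2 was at 0, 0.08 and 1.87 CPM in bone marrow ASC and 2.21, 0.46 and 0 CPM in spleen ASC. For comparison, 3 reads, the number that a count of 0 still allows, are worth 0.170 to 0.243 CPM in bone marrow ASC and 0.183 to 0.229 CPM in spleen ASC; Cd22 was above that limit in all 6 libraries and Fcer2a in all 3 of spleen ASC. Fcrl5 was at 0.22, 0 and 0 CPM in bone marrow ASC, at or near that limit, and 0.76, 1.30 and 1.71 CPM in spleen ASC.

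Fcrla and Fcgr2b had the highest mean CPM of the 9 genes in both ASC groups. Fcrl1 and Cd72 were also above the 3-read limit in every ASC library. In bone marrow ASC Fcrl1 averaged 7.51, Cd72 13.3 and Siglecg 3.74 CPM. In spleen ASC Fcrl1 averaged 11.3, Cd72 8.98 and Siglecg 9.37 CPM. Fcgr2b was at 26.1, 22.5 and 31.0 CPM in bone marrow ASC and 27.5, 37.4 and 52.1 CPM in spleen ASC, against 144, 172 and 181 CPM in naive libraries labelled wild type. Without immunoglobulin genes these became 79.8, 75.5 and 88.5 CPM in bone marrow ASC and 73.0, 110.5 and 135 CPM in spleen ASC, against 149.9, 179 and 189 CPM in naive libraries labelled wild type. On that scale both ASC groups overlapped GC libraries labelled wild type, at 63.0, 86.5 and 60.2 CPM. Fcrla was at 55.9, 86.2 and 80.3 CPM in bone marrow ASC and 53.6, 110.0 and 70.1 CPM in spleen ASC, against 842, 767 and 748 CPM in naive libraries labelled wild type. Its mean in ASC was above that of GC libraries labelled wild type on both scales, with overlap on the CPM scale and none without immunoglobulin genes, where Fcrla averaged 230.0 ± 59.3 CPM in bone marrow ASC, 216.6 ± 96.4 CPM in spleen ASC and 38.3 CPM in GC libraries labelled wild type. Between bone marrow ASC and spleen ASC, none of the 3 genes averaging 10 CPM or more (Fcgr2b, Fcrla and Cd72) had separate ranges, where 0.733% of genes were higher and 28.7% lower in bone marrow.

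**Figure D3:**
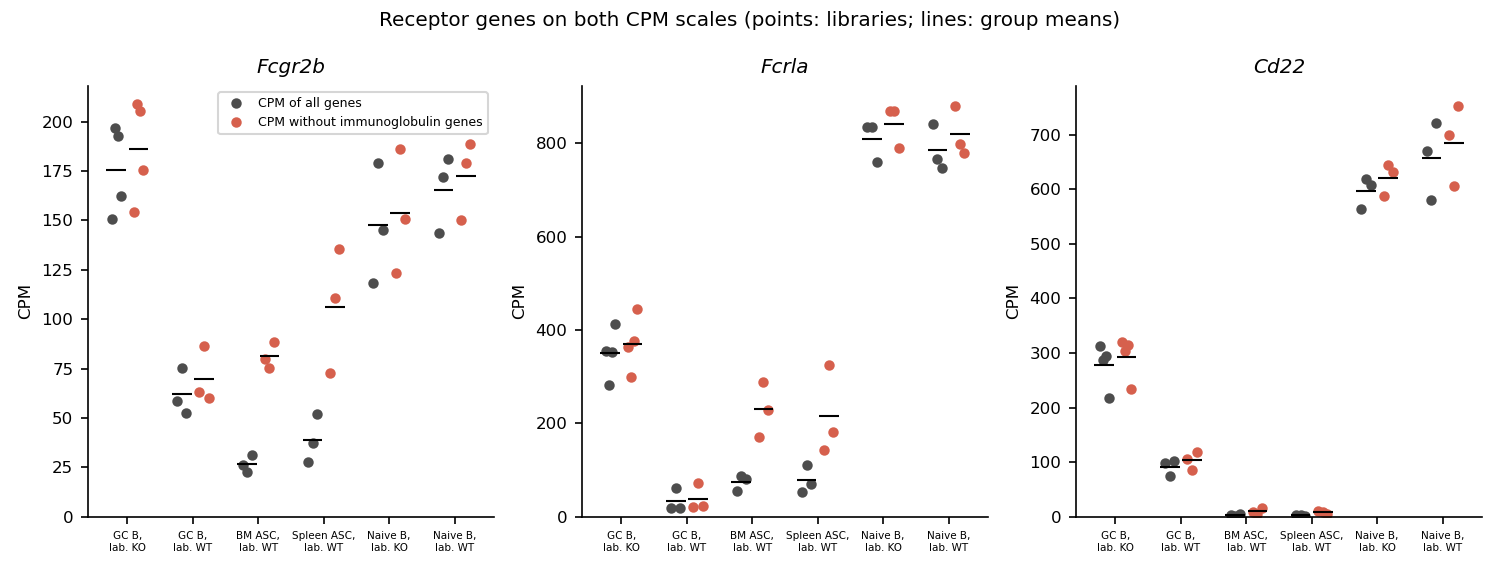
Fcgr2b, Fcrla and Cd22 in every library as CPM of all genes (grey) and CPM with immunoglobulin genes left out of the total (red), with lines at group means. Fcgr2b in spleen ASC averages 39.0 CPM of all genes and 106.3 CPM without immunoglobulin genes, against 165.4 and 172.6 CPM in naive libraries labelled wild type, while Cd22 stays near the axis in both ASC groups on both scales.

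Per kilobase of exon, which allows genes to be compared with one another, the mix of receptors differed between groups. In GC libraries labelled knockout Fcrla (200.3 CPM per kb) and Cd72 (141.7) stood highest, Cd22 (55.1) and Fcrl1 (45.5) came next, and Fcer2a (20.2) and Fcrl5 (8.07) stood lowest. In GC libraries labelled wild type Fcer2a was first at 622.9 CPM per kb, then Cd72 at 113.0, while Fcrla was at 19.3 and Cr2 last at 1.80. Naive B cells labelled wild type had Fcrla at 449.0 and Fcer2a at 400.2 CPM per kb, Cd22 at 130.3, Cd72 at 126.0, Fcrl1 at 98.4, Cr2 at 68.8, Siglecg at 52.2, Fcgr2b at 28.6 and Fcrl5 at 10.4.

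The genes around these receptors were read from 6 lists, chosen like the 9 genes with earlier results known. Of 9 tested ITIM effectors in GC B cells, 3 were higher in libraries labelled knockout and none lower, with a median log2 fold change of 0.76; over all tested genes 8.54% were higher and 5.09% lower, with a median of 0.02. Lyn, the kinase that phosphorylates the ITIMs, averaged 234.3 ± 63.02 CPM in GC libraries labelled knockout and 59.6 ± 40.3 CPM in those labelled wild type (SD, n = 4 and n = 3; log2 fold change 2.16, limma adjusted p = 0.0128). Ptpn6, the phosphatase recruited by Cd22, Siglecg and Cd72, was at 523.7 ± 94.16 CPM labelled knockout and 301.4 ± 34.54 CPM labelled wild type (0.78, limma adjusted p = 0.0186), and Cblb, a ubiquitin ligase, at 36.29 ± 11.6 CPM labelled knockout and 4.50 ± 4.12 CPM labelled wild type (3.21, limma adjusted p = 0.0353). Inpp5d, the lipid phosphatase recruited by Fcgr2b, averaged 84.83 ± 43.7 CPM labelled knockout and 69.02 ± 18.31 CPM labelled wild type (0.07, limma adjusted p = 0.952). Cblb passed the 10 CPM filter only through libraries labelled knockout and could only be higher. Dok1, another of the list, passed it only through libraries labelled wild type and could only be lower. The count and median are thus not read as a shift of ITIM effectors.

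Of 12 other Fc receptors 4 were tested and 2 were higher: Fcgr3, given above, and Fcmr, the IgM receptor, at 352.2 ± 43.5 CPM in GC libraries labelled knockout and 235.4 ± 26.7 CPM in those labelled wild type (log2 fold change 0.58, limma adjusted p = 0.0437). The median was 2.68, or 2.58 with the 1 gene at 0 in all libraries labelled wild type set to the 3-read limit. That gene, Fcgrt, and Fcgr3 passed the 10 CPM filter only through libraries labelled knockout. They could only be higher, so the median is not read as a shift of Fc receptors. Of 15 other complement genes 7 were tested and 3 were higher, with a median of 2.96, or 2.76 with 3 such genes at that limit. They were C1qb, C1qc and Cd59a. C1qb and C1qc, subunits of the first complement component made by macrophages, averaged 131.6 ± 146.7 and 86.8 ± 68.7 CPM in GC libraries labelled knockout. Both were at 0 in all labelled wild type. Cd59a, a membrane inhibitor of complement lysis, was at 34.3 ± 6.85 CPM labelled knockout and 0.262 ± 0.454 CPM labelled wild type (limma adjusted p = 0.00255). C1qa, C1qb, C1qc and Cd59a passed the 10 CPM filter only through libraries labelled knockout. They could only be higher, so the count and median are not read as a result about complement genes. Of 14 other inhibitory receptors 9 were tested, 1 was higher and 1 lower, where 8.54% of all tested genes were higher and 5.09% lower. The median was 2.29, and also 2.29 with the 2 genes at 0 in all libraries labelled wild type, Lair1 and Cd300a, at that limit. Lair1, Cd300a, Cd5, Pirb and Pdcd1 passed the 10 CPM filter only through libraries labelled knockout. The median is thus not read as a shift of inhibitory receptors. Pecam1 was at 88.5 ± 41.5 CPM labelled knockout and 12.0 ± 7.93 CPM labelled wild type (2.82, limma adjusted p = 0.0086). Lilrb4a, an ITIM receptor of myeloid and antibody-secreting cells, was at 13.2 ± 18.1 CPM labelled knockout and 443.1 ± 93.3 CPM labelled wild type (−5.91, limma adjusted p = 0.00374). In the ASC libraries here Lilrb4a averaged only 0.598 CPM in spleen and 1.66 CPM in bone marrow.

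Among 7 genes of ligands and shedding, Ighe alone was called, and the median was −0.03. Ighe passed the 10 CPM filter only through libraries labelled wild type and could only be lower. St6gal1 makes the sialylated ligand of Cd22. It was at 97.0 ± 35.2 CPM in GC libraries labelled knockout and 187.0 ± 16.9 CPM in those labelled wild type (log2 fold change −1.01, limma adjusted p = 0.0571). Of 14 tested transcription regulators 6 were higher and 3 lower, where 8.54% of all tested genes were higher and 5.09% lower. Their median was 1.08. Bcl6 and Dtx1 passed the 10 CPM filter only through libraries labelled knockout and could only be higher. Prdm1 passed it only through libraries labelled wild type and could only be lower. The count and median are thus not read as a shift of these regulators. Ebf1 averaged 302.5 ± 56.3 CPM in GC libraries labelled knockout and 89.3 ± 3.48 CPM in those labelled wild type (1.73, limma adjusted p = 0.000893), Spib, a relative of PU.1, 89.4 ± 31.1 CPM labelled knockout and 16.5 ± 3.44 CPM labelled wild type (2.33, limma adjusted p = 0.00379), and Bcl6, the germinal centre repressor, 34.0 ± 8.44 CPM labelled knockout and 1.02 ± 0.606 CPM labelled wild type (4.13, limma adjusted p = 0.00384). Irf4, a driver of the plasma cell programme, averaged 26.7 ± 14.7 CPM labelled knockout and 143.8 ± 32.0 CPM labelled wild type (−2.51, limma adjusted p = 0.0057). Stat6, which carries the signal of interleukin 4 to Fcer2a, was at 24.4 ± 8.26 CPM labelled knockout and 21.0 ± 6.77 CPM labelled wild type (0.17, limma adjusted p = 0.86). In naive B cells no gene of the 6 lists was called.

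**Figure D4:**
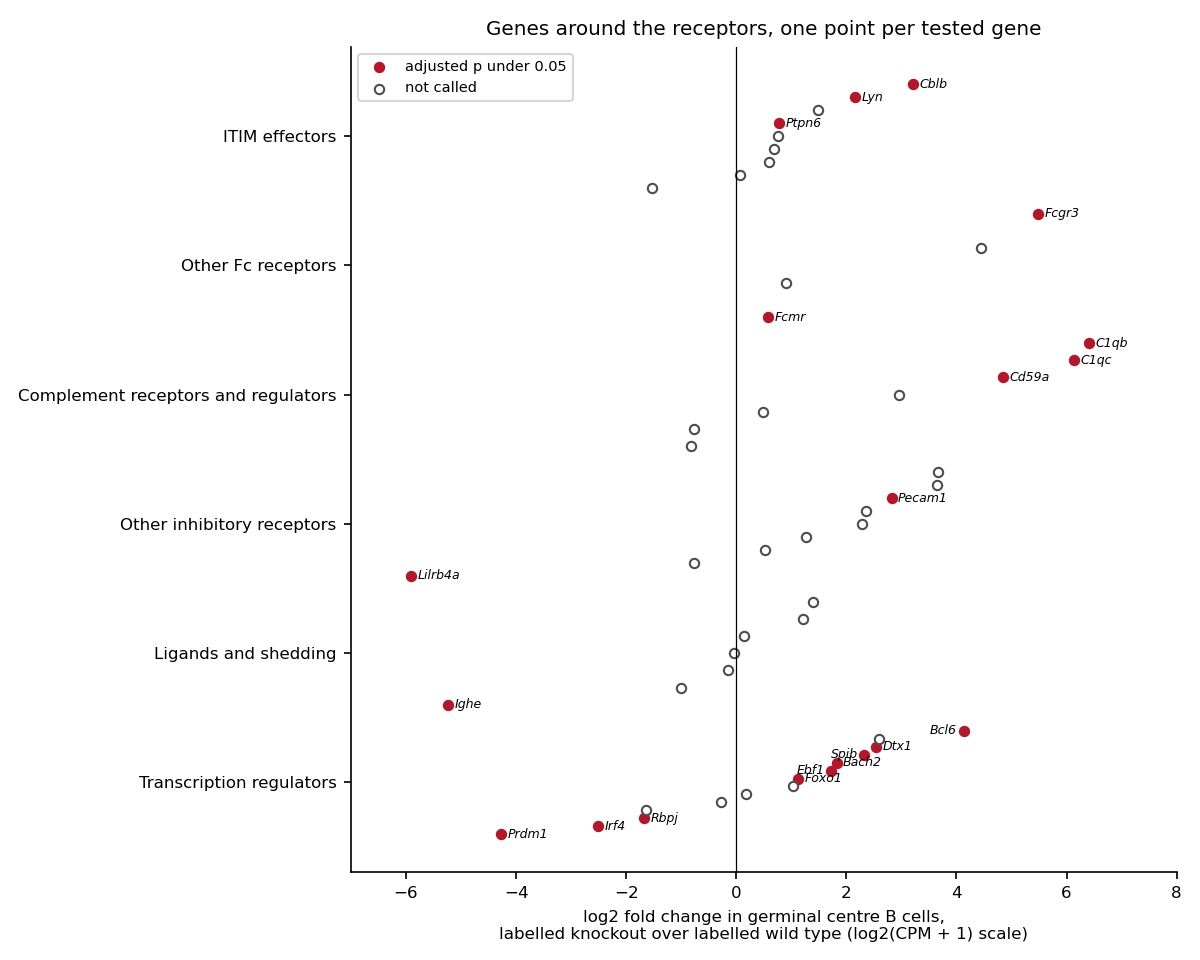
Log2 fold change of each tested gene of the 6 lists in GC B cells, labelled knockout over labelled wild type, on the log2(CPM + 1) scale; filled points have a limma adjusted p under 0.05 and are named. The 3 called ITIM effectors lie right of 0, and of these Cblb passed the 10 CPM filter only through libraries labelled knockout. C1qb and C1qc were at 0 in all libraries labelled wild type, so their distance from 0 depends on the added 1 CPM.

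Markers of other cells moved with the same labels in GC libraries, and their part in the receptor differences was not tested. The 10 T cell markers summed to 1254 to 2409 CPM in GC libraries labelled knockout, against 64.82 to 117.4 CPM in those labelled wild type. In the latter Cd3d, Cd3e, Cd3g, Cd4, Cd8a and Trbc2 were at 0. Of 9 tested, 8 were higher, where 8.54% of all tested genes were. Of these 9, Trac, Il7r and the 5 at 0 in libraries labelled wild type passed the 10 CPM filter only through libraries labelled knockout. They could only be higher. In naive libraries they summed to 541.1 to 581.6 CPM labelled knockout and 540.0 to 610.3 CPM labelled wild type, mostly Cd2, which averaged 482.4 and 474.9 CPM there in libraries labelled knockout and wild type. Trac averaged 198.7 CPM in GC libraries labelled knockout, against 7.552 CPM in naive libraries labelled knockout and 10.26 CPM in those labelled wild type. Erythroid markers summed to 28.27 to 1750 CPM in GC libraries labelled knockout and at most 0.150 CPM in those labelled wild type. The 6 pan-B markers summed to 6177 to 6852 CPM in GC libraries labelled knockout, against 3893 to 4777 CPM in those labelled wild type, with 9837 to 10630 CPM and 10680 to 11310 CPM in naive libraries labelled knockout and wild type. The 6 naive B markers summed to 323.9 to 625.1 CPM in GC libraries labelled knockout, against 250.6 to 379.2 CPM in those labelled wild type, with 6951 to 7701 CPM and 6608 to 7588 CPM in the naive groups labelled knockout and wild type. Of the 8 ASC markers 4 were lower in GC libraries labelled knockout and none higher, where 5.09% of all tested genes were lower and 8.54% higher. Their median log2 fold change was −2.20. Prdm1 and Sdc1 passed the 10 CPM filter only through libraries labelled wild type and could only be lower. Tnfrsf17 passed it only through libraries labelled knockout and could only be higher. The count and median are thus not read as a shift of ASC markers. Xbp1, a transcription factor of secretory cells, averaged 478.4 CPM in GC libraries labelled knockout and 3023 CPM in those labelled wild type (limma adjusted p = 9.64e-05), and Mzb1, a chaperone of antibody assembly, 624.6 CPM labelled knockout and 2313 CPM labelled wild type (limma adjusted p = 0.000246); Prdm1 and Irf4 were the others. The sums of the 8 ASC markers overlapped, at 3776 to 11800 CPM labelled knockout, against 6746 to 11010 CPM labelled wild type. Jchain, which was not called, averaged 7923 CPM of a mean sum of 9101 CPM labelled knockout. In GC libraries labelled wild type it averaged 3719 CPM of a mean sum of 9354 CPM. Dendritic cell markers overlapped at 23.8 to 72.01 CPM labelled knockout and 27.25 to 38.73 CPM labelled wild type. Neutrophil markers, of which 2 of 6 were listed, summed to 0 to 62.3 CPM labelled knockout and to 0 in all GC libraries labelled wild type.

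Over all 19 libraries the 9 genes rose and fell together to different degrees, which is a description only, since the libraries share cell types. The scale is CPM of all genes, on which 83.7% of genes in spleen ASC and 88.3% in bone marrow ASC lay below naive B cells labelled wild type. Correlations over all gene pairs, or without immunoglobulin genes in the total, were not taken, so the values below have no background. Pairwise Pearson correlations of log2(CPM + 1) had a median of 0.863 over 36 pairs, from 0.367 for Fcer2a with Fcrla to 0.975 for Fcrl1 with Cd22. Among 6967 genes listed everywhere that averaged 10 CPM or more, the closest to Fcer2a were Tmem123 (r = 0.983), Ly6d (0.976) and Gpr183 (0.975). Cr2 was closest to Dtx1 and Tbc1d10c (both 0.983) and Crlf3 (0.979). Dtx1, a Notch target, was also higher in the GC comparison, at 44.7 ± 13.6 CPM in libraries labelled knockout and 7.05 ± 3.79 CPM in those labelled wild type (log2 fold change 2.54, limma adjusted p = 0.0141). Rbpj, the Notch partner, was lower, at 21.68 ± 5.026 CPM in GC libraries labelled knockout and 70.65 ± 8.694 CPM in those labelled wild type (−1.68, limma adjusted p = 0.0133). The closest to Fcgr2b were Gimap9 (0.975), Tmsb4x (0.972) and Cd2 (0.972), to Fcrl1 Bank1 (0.984), Btg1 (0.981) and Dazap2 (0.980), and to Fcrla Traf5 (0.971), Cxxc5 (0.963) and Cerk (0.962). Cd22 was closest to Actb (0.989), Lcp1 (0.988) and Ebf1 (0.987), Siglecg to Gpsm3 (0.972), Higd2a (0.971) and Ikzf1 (0.969), Cd72 to Prdx5 (0.990), Hnrnpf (0.989) and Brd3 (0.987), and Fcrl5, the least like any, to Pole4 (0.960), Heatr6 (0.943) and Ppp4c (0.940).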

How the data were processed

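The authors deposited expression as CPM in 4 tables, one each for GC B cells, naive B cells, spleen ASC and bone marrow ASC, with every column summing to 1000000. Reads were aligned with STAR to mm10, per the submitters' processing notes; no counting tool, annotation, strand setting or filter is named there. The GC table lists 17939 genes with 0.0001 added to each value, which was subtracted. The other 3 list 19416 rows, of which 19 with names turned into dates were dropped. The smallest CPM step gave the worth of 1 read; 52.8% to 89.2% of values below 100 reads lay within 0.02 of a whole read, so no test on counts was used. Genes averaging 10 CPM or more were fitted with limma 3.58.1 (trend, no covariate) in R 4.3.3 on log2(CPM + 1), which understates the change of low genes. Benjamini-Hochberg adjusted p-values under 0.05 over all tested genes were called, and intervals are at 95%. The 3-read limit and the step cover counting error only. Python 3.11.15 and pandas 2.3.3 served for sums, ratios and correlations, and lengths and positions are from GENCODE M21. The 9 genes and the lists were chosen with earlier results of these data known; named genes are the 9, up to 4 per list with the smallest GC p-values or needed as a control (Inpp5d, Adam10, Stat6, Dtx1 and Rbpj were added after their values were seen), and for likeness the 3 highest r, without immunoglobulin, T cell receptor, predicted genes and pseudogenes. Longer motifs of STAT6, EBF1 and NF-kB were also searched in the promoters and are not reported. One further list and 1 macrophage marker are not reported here by name. Within a cell type, same-numbered replicates labelled knockout and wild type did not correlate. Pairing of GC with naive libraries by mouse was not examined. Alternatives covered the pseudocount, filter, scaling, weights, threshold, voom, replicate block and single libraries.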

Additional observations from a re-analysis of the deposited data

Results flagged for a closer look

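For 7 genes the labelled knockout effect in GC B cells differed from that in naive B cells in the test of the difference itself (limma over all 4 groups, adjusted p under 0.05). On the log2 scale the GC effect minus the naive effect was −4.94 for Fcer2a, 4.07 for Cr2, 3.50 for Fcrla, 2.63 for Siglecg, 1.72 for Cd22, 1.67 for Fcgr2b and 1.29 for Fcrl1. In each case the naive effect was between −0.25 and 0.16. The GC libraries labelled knockout also held more T cell marker RNA, 1254 to 2409 CPM against 64.82 to 117.4 CPM in those labelled wild type, and its part in these differences was not tested.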

How the results depend on the processing

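The 7 GC genes were called under all 20 alternatives, with adjusted p at most 0.047 (Fcrl1), and the 7 differences under all 26; none of the 9 was called in naive B cells under any of 18. Over all genes the share called in GC, 13.6% as reported, was 5.69% with no filter, 8.61% with a filter at 1 CPM, 8.62% with voom, 6.09% at an adjusted p under 0.01, 5.13% without both GC replicate 1 labelled knockout and GC replicate 3 labelled wild type, and 7.07% to 13.3% without single libraries. The share called for the difference, 7.83%, was 4.58% with no filter, 4.14% with voom, 3.51% at an adjusted p under 0.01 and, in an alternative added after seeing the data, 7.30% without the same pair of libraries. With a replicate block it was 9.66% in GC and 6.14% for the difference, with 7 of the 9 genes in each. Within a cell type, same-numbered libraries labelled knockout and wild type correlated at −0.047 to 0.079 after group means were removed. Unlike numbers gave −0.064 to 0.064. Whether GC and naive libraries came from the same mice was not examined, and the test of the difference took all libraries as independent. The cause of these changes in share was not tested. Small naive effects changed sign: Fcer2a to −0.0070 and Fcrl5 to 0.010 with array weights, and, without single libraries, Fcer2a ran from −0.10 to 0.069 (−0.07 without replicate 1 labelled knockout), Fcrl5 from −0.21 to 0.17 (0.03 without replicate 3 labelled knockout) and Siglecg from −0.22 to 0.10; without replicate 1 labelled wild type they stood at −0.10, 0.17 and 0.10. Without immunoglobulin genes, 8 instead of 9 genes had every naive library above every ASC library (Fcgr2b overlapped). Replicate spread limits Fcrl5, and Fcer2a, Cr2, Fcrl5 and Siglecg each have a bone marrow ASC library at 0, as Cr2 has in spleen ASC.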
